A study of Mus musculus with 6 samples.

Results

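The YAP and TEAD axis was examined through 10 genes, out of the 20163 genes with a symbol on the arrays: Ccn1, Ccn2, Ankrd1, Amotl1, Amotl2, Lats2, Yap1, Wwtr1, Tead1 and Tead4. They were taken by gene symbol from the deposited annotated table, with 1 probe set per gene, the brightest over the 6 arrays, and all 10 were found. Ccn1 and Amotl2 were picked because they stood higher after BMP6 in these samples, so their difference between the groups is given as a description, with no p. The other 8 are targets, regulators and partners of the same pathway, and the question was whether the rise extended to them and to further YAP targets.

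The 6 samples were cultures of adult muscle stem cells, the cells that rebuild skeletal muscle. They came from C57BL/6J mice, all female and 6 to 8 weeks old. The cells of both groups were expanded for 2 days on Matrigel and then held for 6 h without serum and with 200 ng/ml of ALK3-Fc, a soluble receptor that captures BMPs. The BMP6 group (n = 3) then received 100 ng/ml BMP6 for 1 h and the vehicle group (n = 3) the solvent of BMP6 alone. Nothing in the labels describes a genetic change. The source names give mice 1, 2 and 3 for BMP6 replicates 1, 2 and 3, and mice 1, 2 and 2 for the vehicle replicates.

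YAP and its relative TAZ, encoded by Yap1 and Wwtr1, are coactivators that bind DNA through the TEAD transcription factors. The Hippo kinases, with LATS1 and LATS2 at their end, phosphorylate both coactivators and keep them out of the nucleus, and angiomotin proteins hold them in the cytoplasm or at cell junctions. Mechanical tension, cell spreading and serum lipids raise YAP activity, and in muscle stem cells active YAP is known to favour proliferation over differentiation. Several YAP targets, among them Lats2 and Amotl2, encode inhibitors of YAP and so form a feedback loop.

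Values are log2 RMA expression, on which a difference of 1 is a 2-fold difference. RMA gives every array nearly the same distribution, and the median over genes lay between 6.38 and 6.45 on the 6 arrays. In the fit of BMP6 against vehicle with limma, 17 of 20163 genes (0.0843%) passed an adjusted p under 0.05, all of them higher in BMP6. Ccn1 is 1 of these 17 and Amotl2 is not among them. Nothing is read from either outcome, since both genes were chosen on the same contrast. All 5 BMP targets taken as references had a higher mean in BMP6. Id2 (1.39-fold, 95% interval 1.18 to 1.63) did not pass (limma adjusted p = 0.567). The other 4 passed, among them Id1 (2.99-fold, 2.58 to 3.46), Id3 (2.88-fold, 2.32 to 3.56) and Smad7 (3.30-fold, 2.91 to 3.75). The fourth, Smad6 (1.92-fold, 1.57 to 2.36, limma adjusted p = 0.0403), lost its call in 8 of 16 alternatives, with an adjusted p of up to 0.461, while Id1, Id3 and Smad7 passed in all 16. Of 10 muscle stem cell markers, 8 lay above the median of all genes, against 10 of 35 markers of endothelial, fibro-adipogenic, immune, pericyte and Schwann cells. By cell type these were 0 of 7 endothelial, 3 of 8 fibro-adipogenic, 1 of 7 immune, 2 of 7 pericyte and 4 of 6 Schwann markers. In bulk samples such as these, fewer cells of a type and less RNA per cell cannot be told apart.

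Ccn1 encodes a secreted matrix-associated protein of the CCN family and is a standard YAP target. Its level was 11.36, 11.38 and 11.55 with BMP6 (replicates 1, 2 and 3, an order kept throughout) and 10.46, 10.56 and 10.79 with vehicle. All BMP6 samples lay above all vehicle samples, with 11.43 ± 0.10 against 10.60 ± 0.17 (mean ± SD, n = 3). The difference was 0.82 on the log2 scale, or 1.77-fold (1.52 to 2.07, the 95% interval of the fit). Here and for Amotl2 the interval describes the uncertainty of the difference between group means in the fit and is not read as a test.

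Amotl2 encodes an angiomotin-like protein that restrains YAP and is itself a YAP target. Its level was 8.65, 8.45 and 8.28 with BMP6 and 7.95, 7.84 and 7.75 with vehicle. The groups again did not overlap, at 8.46 ± 0.19 against 7.85 ± 0.10 (n = 3). The log2 difference was 0.61, or 1.53-fold (1.30 to 1.80). Groups of this kind, with BMP6 above vehicle, were found for 3.84% of all genes, and nothing is read from that here because the pair was chosen on this contrast. When 1 array at a time or both replicate 3 samples were left out, the log2 difference stayed between 0.75 and 0.92 for Ccn1 and between 0.52 and 0.70 for Amotl2.

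Among the 35 markers of other cell types, 0 passed in limma, 1 was higher and 2 were lower at an unadjusted p under 0.05 (all genes: 1.40% higher and 1.77% lower). Their summed level, as a mean per marker, ran from 5.79 to 5.81 in BMP6 and from 5.83 to 5.88 in vehicle. It was thus lower in every BMP6 sample than in any vehicle sample. Most of these markers were dim, with 10 of the 35 above the median of all genes. A mean above vehicle was found for 34.3% of the markers, 49.3% of all genes and 56.4% of the genes above the median level. The part of other cells in the values of Ccn1 and Amotl2 was not tested.

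Of the other 8 members, 0 passed in limma at an adjusted p under 0.05 (all genes: 0.0843%), and 0 had an unadjusted p under 0.05 (all genes: 3.17%). All 8 had groups that overlapped, and non-overlapping groups in either direction were found for 7.71% of all genes. Their fold changes lay between 0.964 and 1.11, and the highest upper limit of any of their 95% intervals was 1.27-fold.

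**Figure D1:**
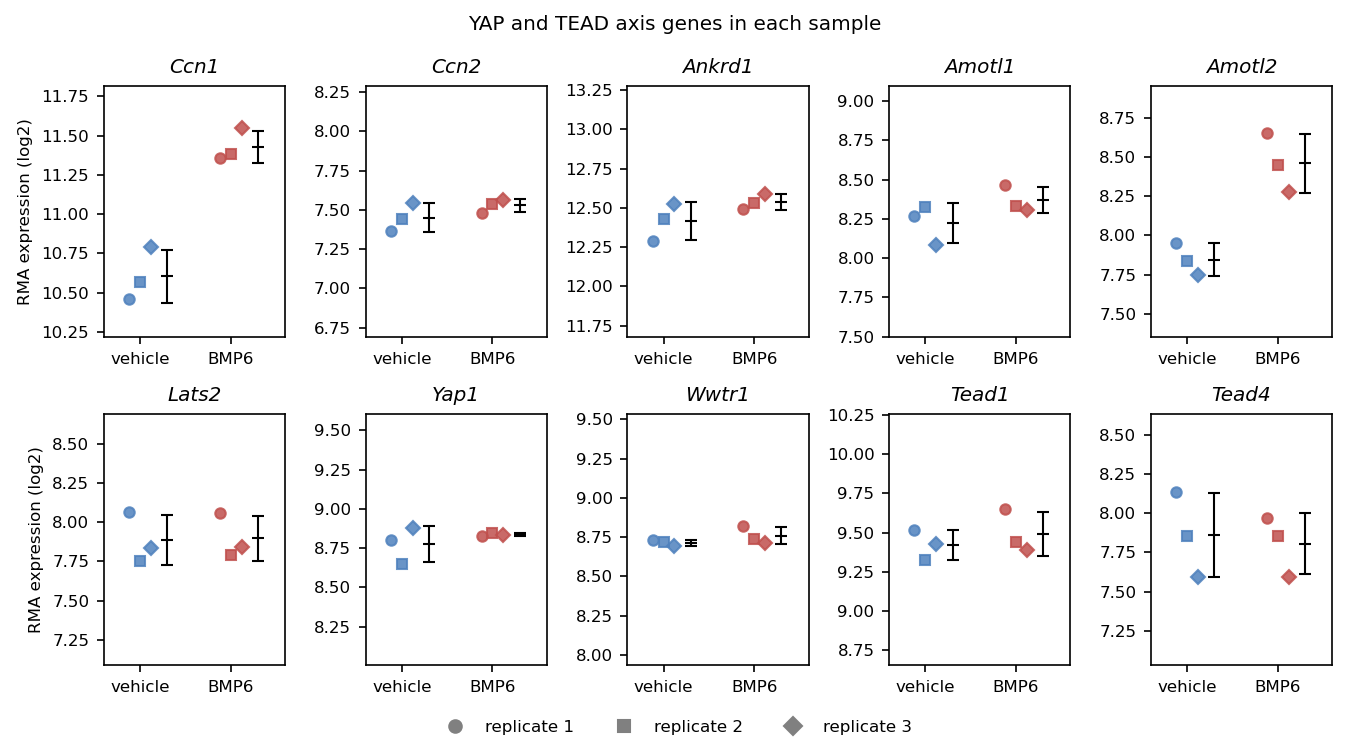
Log2 RMA expression (vertical axes, each spanning 1.6 log2 units) of the 10 genes in vehicle (blue) and BMP6 (red) samples. Circles, squares and diamonds are replicates 1, 2 and 3, and black marks are the mean ± SD of 3 samples. Only the panels of Ccn1 and Amotl2, which were chosen on this contrast, have all red points above all blue points.

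Ccn2 and Ankrd1, which with Ccn1 are the genes most often read as YAP targets, did not pass the test. Ccn2 encodes connective tissue growth factor, a relative of Ccn1. Its level was 7.48, 7.54 and 7.56 with BMP6 and 7.36, 7.44 and 7.54 with vehicle. These ranges overlap, and the log2 fold change was 0.08 (SE 0.08, limma adjusted p = 1), or 1.06-fold (0.937 to 1.19).

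Ankrd1 encodes a stress-responsive ankyrin repeat protein of striated muscle. Its level was 12.49, 12.53 and 12.59 in BMP6 and 12.29, 12.43 and 12.53 in vehicle, so that the highest vehicle sample lay above the lowest BMP6 sample. The log2 fold change was 0.12 (SE 0.08, limma adjusted p = 1), or 1.09-fold (0.957 to 1.24).

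The promoters of Ccn1, Amotl2 and Ankrd1 are shown. The first pair was picked for its rise after BMP6, while the groups of Ankrd1, which carries 2 matches to the TEAD motif, overlapped. The sequences are the 250 bases before the annotated start, 5′ to 3′ on the gene's strand, from RefSeq with build GRCm38.p6. Capitals mark GGAATG, the TEAD motif, or its reverse complement CATTCC, and GGCGCC, a motif bound by BMP SMADs. Ccn1 lies at chr3:145649986-145650235 on the minus strand, Amotl2 at chr9:102717554-102717803 on the plus strand and Ankrd1 at chr19:36119845-36120094 on the minus strand.
Ccn1: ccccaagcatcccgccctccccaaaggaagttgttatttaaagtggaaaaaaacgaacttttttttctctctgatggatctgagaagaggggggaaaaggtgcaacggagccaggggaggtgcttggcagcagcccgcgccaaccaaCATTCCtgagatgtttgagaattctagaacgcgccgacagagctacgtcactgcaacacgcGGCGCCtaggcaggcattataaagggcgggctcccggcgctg
Amotl2: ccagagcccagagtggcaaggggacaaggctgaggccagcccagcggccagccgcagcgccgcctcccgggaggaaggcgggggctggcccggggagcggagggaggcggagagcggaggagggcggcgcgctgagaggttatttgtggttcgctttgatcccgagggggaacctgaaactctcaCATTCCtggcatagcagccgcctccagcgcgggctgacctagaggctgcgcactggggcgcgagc
Ankrd1: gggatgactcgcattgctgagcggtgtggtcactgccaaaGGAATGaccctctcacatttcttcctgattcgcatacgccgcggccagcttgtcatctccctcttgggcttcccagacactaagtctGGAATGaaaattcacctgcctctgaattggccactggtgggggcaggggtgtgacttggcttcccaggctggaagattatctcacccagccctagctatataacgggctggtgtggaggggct

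RefSeq promoters were matched for 7 of the 10 genes, with 2 entries each for Lats2 and Wwtr1; Ccn2, Tead1 and Tead4 had none. GGAATG occurred on either strand in the window of 5 of these 7 genes, namely Ccn1, Amotl2, Ankrd1, Yap1 and Wwtr1, and in 12.6% of all 32851 promoters. In Ccn1 the match lay 103 to 98 bases before the start and in Amotl2 65 to 60 bases before it, both on the reverse strand. Ankrd1 held 2 matches, 210 to 205 and 123 to 118 bases before the start, where 1.02% of all promoters held 2 or more.

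GGCGCC was found in Ccn1, 42 to 37 bases before the start, and in the first Lats2 promoter, against 9.59% of all promoters. The short SMAD motif GTCTG, or its reverse complement CAGAC, occurred in Ankrd1 and Yap1 and in 42.2% of all promoters, and in Ankrd1 it shares a base with the nearer GGAATG. No CArG box, the motif of serum response factor (SRF), was found in the 9 member windows, and 1.47% of all promoters held it. GGAATG was present in Ccn1 and Amotl2, picked for their rise after BMP6, and in Ankrd1, Yap1 and Wwtr1, whose groups overlapped. The part of the motif in these values was not tested.

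Among the inhibitors, Lats2, the kinase that phosphorylates YAP, was at 8.05, 7.79 and 7.84 in BMP6 and at 8.06, 7.75 and 7.84 in vehicle. The groups spanned nearly the same range, and the log2 fold change was 0.01 (SE 0.10, limma adjusted p = 1; interval 0.857 to 1.18-fold). Amotl1, the paralogue of Amotl2, was at 8.46, 8.33 and 8.31 in BMP6 and at 8.27, 8.32 and 8.08 in vehicle. It had the largest log2 fold change among the 8, at 0.14 (SE 0.09, limma adjusted p = 1), or 1.11-fold (0.964 to 1.27), and its groups overlapped through vehicle replicate 2.

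The coactivators themselves did not pass the test, and their groups overlapped. Yap1 was at 8.83, 8.85 and 8.83 in BMP6 and at 8.80, 8.65 and 8.87 in vehicle. Its log2 fold change was 0.06 (SE 0.08, limma adjusted p = 1; interval 0.921 to 1.18-fold). Wwtr1 was at 8.82, 8.74 and 8.71 in BMP6 and at 8.73, 8.72 and 8.69 in vehicle, which gave 0.04 on the log2 scale (SE 0.07, limma adjusted p = 1; interval 0.923 to 1.15-fold). The arrays measure transcripts only, and YAP activity is set mainly by phosphorylation and location of the protein, which were not measured here.

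Tead1, a TEAD factor abundant in muscle, was at 9.65, 9.44 and 9.39 in BMP6 and at 9.51, 9.32 and 9.43 in vehicle. The log2 fold change was 0.07 (SE 0.09, limma adjusted p = 1; interval 0.911 to 1.21-fold). It was the only member with a further probe set, which gave 0.09 (SE 0.07) with groups that overlapped as well. Tead4, which takes part in myoblast differentiation, was at 7.97, 7.85 and 7.60 in BMP6 and at 8.13, 7.85 and 7.60 in vehicle. It had the lowest log2 fold change of the 10, at -0.05 (SE 0.14, limma adjusted p = 1; interval 0.776 to 1.20-fold), and the spread among replicates was wider than the difference between treatments.

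A wider list of 26 genes known as YAP/TAZ targets in other cells included Ccn1, Ccn2, Ankrd1, Amotl2 and Lats2. Apart from Ccn1 and Amotl2, 0 of 24 passed in limma (all genes: 0.0843%). At an unadjusted p under 0.05 in limma, 1 was higher and 1 was lower (all genes: 1.40% higher and 1.77% lower). Foxf2, a forkhead transcription factor, was at 6.40, 6.33 and 6.29 in BMP6 and at 6.12, 6.08 and 6.00 in vehicle. Its groups did not overlap and its log2 fold change was 0.27 (SE 0.07, limma adjusted p = 1), or 1.21-fold.

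Fjx1, a secreted kinase-like protein related to the fly gene four-jointed, had the lowest log2 fold change of the list. Its level was 5.52, 5.27 and 5.13 in BMP6 against 5.64, 5.62 and 5.44 in vehicle. The log2 fold change was -0.26 (SE 0.11, limma adjusted p = 1), and the groups overlapped. Both Foxf2 and Fjx1 lay below the median of all genes. The kinase Nuak2 and the growth factor binding protein Igfbp3 were the other list genes with a mean below vehicle, at -0.10 (SE 0.11) and -0.03 (SE 0.08), neither passing the test (limma adjusted p = 1 for both).

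Means above vehicle were more frequent among the 24 than among all genes, by small amounts. The mean was above vehicle for 21 of the 24 (87.5%), against 9949 of 20163 genes (49.3%), and against 56.4% of the genes above the median level. Their median log2 fold change was 0.05, beside -0.0013 for all genes and 0.01 for the genes above the median level. Without vehicle replicate 2 the count above vehicle fell to 14 of 24, without BMP6 replicate 1 the median was 0.02, and without both replicate 3 samples the count was 19 of 24.

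In 5 of the 24 the BMP6 samples lay above all vehicle samples (all genes: 3.84%), and 0 had the opposite order (all genes: 3.86%). Besides Foxf2 these were the receptor tyrosine kinase Axl (1.11-fold), tissue factor F3 (1.10-fold), the RNA-binding protein Rbms3 (1.08-fold) and the membrane repair protein Myof (1.07-fold). Foxf2 was named for its low p and the others after their values were seen, so all were picked on this contrast. No set test was made, the list was assembled with earlier results of these data known, and the genes are not independent of each other, so these counts are a description. The highest upper limit among the 24 was 1.36-fold.

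**Figure D2:**
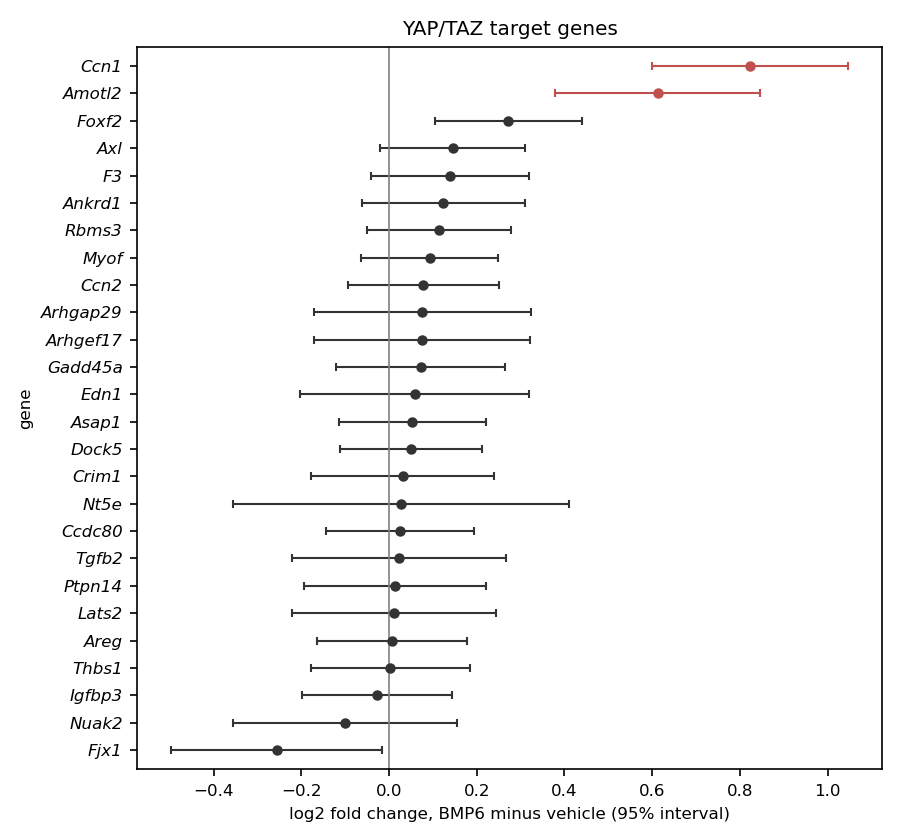
Log2 fold change of BMP6 minus vehicle (horizontal axis) with its 95% interval from the moderated limma fit for 26 YAP/TAZ target genes (3 samples per group), ordered by value. Ccn1 and Amotl2, in red, were chosen on this contrast. The other 24 lie between -0.26 and 0.27.

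In the CCN family, none of the 5 relatives of Ccn1 passed the test. Ccn2, Ccn3, Ccn4, Ccn5 and Ccn6, which encode secreted proteins of related modular structure, had log2 fold changes of 0.08, -0.08, -0.06, -0.14 and 0.07, all with overlapping groups and a limma adjusted p of 1. Ccn4 and Ccn5 are known as WISP proteins induced by Wnt signalling in other cells, and their intervals reached up to 1.08-fold and 1.06-fold. Ccn3 and Ccn6 lay below the median of all genes.

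In the angiomotin family, Amot, the founding member, was at 5.58, 5.36 and 5.48 in BMP6 and at 5.58, 5.51 and 5.77 in vehicle. The log2 fold change was -0.14 (SE 0.09, limma adjusted p = 1) at a level below the median of all genes, beside log2 differences of 0.14 for Amotl1 and 0.61 for Amotl2. Of the muscle ankyrin repeat genes, Ankrd2 was at 0.0034 on the log2 scale (SE 0.07, limma adjusted p = 1), beside 0.12 for Ankrd1, and Ankrd23 had no probe set under that name.

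The 10 genes of the list of coactivators, TEAD factors and their vestigial-like cofactors included 0 that passed in limma (all genes: 0.0843%). Vgll4, which competes with YAP for TEAD and represses its targets, was at 8.17, 8.05 and 8.15 in BMP6 and at 7.80, 7.91 and 7.69 in vehicle. Its groups did not overlap. The log2 fold change was 0.32 (SE 0.08, limma adjusted p = 0.891), or 1.25-fold (1.10 to 1.42). It was the only gene of the list with an unadjusted p under 0.05 (all genes: 3.17%).

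Vgll2, a cofactor of TEAD in skeletal muscle, was at -0.16 (SE 0.09) and Vgll1, Vgll3, Tead2 and Tead3 were at 0.08, -0.02, -0.03 and -0.10, each with an adjusted p of 1 in limma. The groups of these 5 genes overlapped. The list held 5 genes with a mean above vehicle and 5 below.

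**Figure D3:**
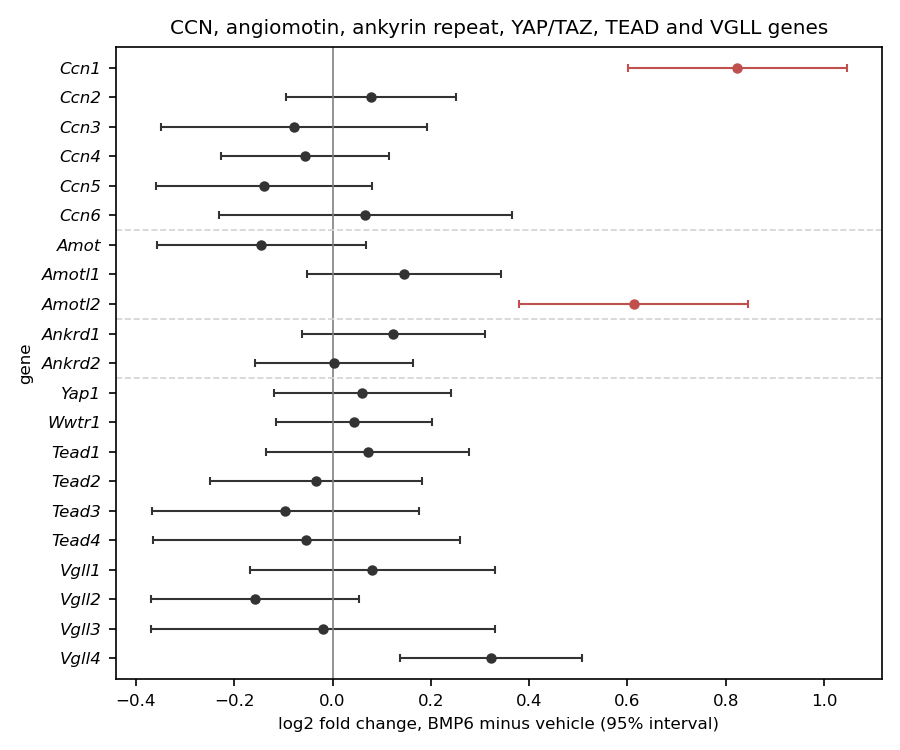
Log2 fold change of BMP6 minus vehicle with its 95% interval (horizontal axis, 3 samples per group) for CCN, angiomotin, muscle ankyrin repeat and coactivator, TEAD and VGLL genes, separated by dashed lines. Ccn1 and Amotl2, in red, were chosen on this contrast and have the largest values, and Vgll4 has the next largest.

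The Hippo kinases and their regulators, which act upstream of YAP, showed no call. Of 24 genes, Lats2 among them, 0 passed in limma (all genes: 0.0843%) and 0 had an unadjusted p under 0.05 (all genes: 3.17%). The 3 genes with the lowest p in each direction had log2 fold changes of 0.09 (Taok1), 0.08 (Taok2) and 0.05 (Wwc2), and of -0.13 (Stk38l), -0.09 (Limd1) and -0.07 (Dchs1). Taok1 and Taok2 are kinases that activate the Hippo kinases, Wwc2 is a scaffold of the pathway, Stk38l is a relative of LATS, Limd1 inhibits LATS and Dchs1 is a cadherin upstream of the pathway. The median was 0.01, and 14 of 24 had a mean above vehicle.

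Ccn1 is also known as a target of SRF and its cofactors of the MRTF family, so 16 genes of that axis were examined beside the YAP targets. In limma 0 passed (all genes: 0.0843%) and 0 had an unadjusted p under 0.05 (all genes: 3.17%), with a median of 0.01. The cofactor Mrtfb was at 0.14 (SE 0.09), the focal adhesion protein Vcl at 0.09 (SE 0.08) and the actin crosslinker Flna at 0.07 (SE 0.07). On the lower side, Filip1l was at -0.14 (SE 0.08), the myosin light chain Myl9 at -0.21 (SE 0.13) and the focal adhesion protein Zyx at -0.12 (SE 0.15), all with a limma adjusted p of 1.

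The pattern of Ccn1 over the 6 samples was most like that of Klhl11, an adaptor of a ubiquitin ligase (Pearson r = 0.995), out of 10080 genes above the median level. It was followed by the BMP target Id3 (0.994), the zinc finger factor Zbtb1 (0.988), Id1 (0.985) and the chemokine receptor Cxcr4 (0.985). For Amotl2 the most similar genes were Gse1 (r = 0.986), the AP-1 subunit Junb (0.985), Iffo2 (0.983), the Notch glycosyltransferase Lfng (0.982) and Pmepa1, an inhibitor of TGF-beta signalling (0.980). The 6 samples form 2 groups by treatment, so r also reflects the difference between treatments, and no p is given. The size of the difference was not matched, since Klhl11 was at 1.11-fold (0.993 to 1.23) and Id3 at 2.88-fold (2.32 to 3.56). Klhl11, Zbtb1, Gse1, Junb, Iffo2 and Lfng did not pass in the limma fit without covariates. Between Ccn1 and Amotl2 r was 0.813.

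Ccn1 and Amotl2 differed in how their replicates were placed within a treatment. Replicate 3 had the highest Ccn1 and the lowest Amotl2 of its group, in BMP6 and in vehicle alike, and replicate 1 had the lowest Ccn1 and the highest Amotl2. Averaged over both treatments, Ccn1 stood at 10.91, 10.97 and 11.17 in replicates 1, 2 and 3 and Amotl2 at 8.30, 8.14 and 8.01. A limma F test of replicate number, with treatment in the model, gave an adjusted p of 0.329 for Ccn1 and 0.305 for Amotl2.

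In that F test 0 of the 10 members passed (all genes: 0.392%), and 4 had an unadjusted p under 0.05 (all genes: 14.0%). They were Ccn1, Amotl2, Lats2 (limma adjusted p = 0.277) and Tead4 (limma adjusted p = 0.158). Tead4 averaged 8.05, 7.85 and 7.60 in replicates 1, 2 and 3, and it passed when only genes above the median level were tested (adjusted p = 0.00464) or when the prior variance followed the level (adjusted p = 0.0181). Lats2 averaged 8.06, 7.77 and 7.84.

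Genes of myogenic differentiation differed between the replicate numbers. Of 17 listed, 11 passed the F test (all genes: 0.392%), among them Myog, the differentiation factor myogenin, which averaged 8.70, 8.13 and 6.94 in replicates 1, 2 and 3 (limma adjusted p = 0.000913). Tead4, like Myog, was highest in both replicate 1 samples and lowest in both replicate 3 samples. Of the 35 markers of other cells, 2 passed the F test, and of the 8 fibro-adipogenic markers among them 1 did. This was the fibroblast proteoglycan Dcn, which averaged 6.23, 6.53 and 7.02 (limma adjusted p = 0.0324). Dcn was chosen after its values were seen, and the list did not move as a whole. Pdgfra, Ly6a, Lum and Smoc2 also averaged highest in replicate 3. Clec3b and Pi16 averaged lowest there, and Dpt averaged highest in replicate 1. The part of differentiation or of other cells in the levels of Ccn1, Amotl2 and Tead4 was not tested.

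**Figure D4:**
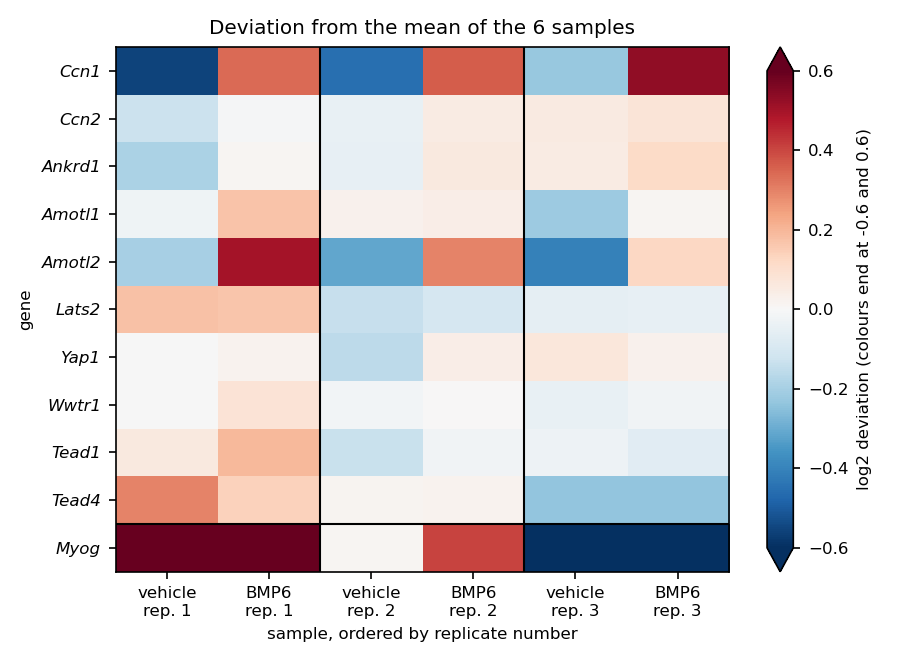
Deviation of each sample (columns, ordered by replicate number) from the mean of the 6 samples on the log2 scale (colour, ending at -0.6 and 0.6) for the 10 genes and Myog. Ccn1 and Amotl2 change colour between vehicle and BMP6 within each replicate number, whereas Tead4 and Myog share a colour within a number, being red in replicate 1 and blue in replicate 3.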

How the data were processed

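The values analysed were log2 RMA expression, 1 per probe set and array, deposited by the authors, who used oligo and RMA, per the submitters' processing notes. The sources used here name no version, array type, annotation or genome build. The annotated table held 34760 probe sets, of which 21893 carried a symbol, and 907 genes had several. The probe set with the highest mean over the 6 arrays stood for a gene, which left 20163 genes, with no filter on dim ones.

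The treatments were compared with limma 3.58.1 under R 4.3.3, by a moderated 2-sided test without covariates and with Benjamini-Hochberg adjustment over all 20163 genes. The threshold was an adjusted p under 0.05. The fit had 4 residual degrees of freedom and 5.72 from the prior. Intervals are 95% intervals of that fit. Differences among replicate numbers were tested by limma's F test in a model with treatment and replicate number. The script was tested on simulated data.

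The members and gene lists were chosen with earlier results of these data known. Named genes were all members, the families and TEAD list in full, the genes past the threshold or else the 3 with the lowest p per direction in the other lists, 5 BMP targets, Myog, and the 5 genes most correlated with Ccn1 and with Amotl2. Alternatives were blocks by replicate number or mouse, left-out samples, a filter on level, another prior, centring, the second deposited table and other probe set rules.

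The labels call the samples biological replicates, but the third vehicle sample has mouse 2 in its source name. The p-values treat the 6 samples as independent, and whether they speak for separate mice was not settled. The result of 1 marker gene is not reported here. Arrays carry no read depth, and their number limits the precision.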

Additional observations from a re-analysis of the deposited data

How the results depend on the processing

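Among the 8 members other than Ccn1 and Amotl2, 0 passed in limma under each of 16 alternatives, and likewise 0 of the other 24 YAP/TAZ targets and 0 in the Hippo, TEAD and SRF lists. The number of all genes called, 17, became 32 with replicate number as a random block, 30 of the genes above the median level, 27 with a trended robust prior and 26 with each array centred on its median. It was 7 to 15 when 1 array was left out. In the F test of replicate number, 1 member, Tead4, passed among the genes above the median level and 1 with the trended robust prior. The median of the 24 targets was 0.020 to 0.071 without 1 array, and their number above vehicle, a count added after seeing the data, was 14 to 23. The cause of these changes was not tested.

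Whether equal replicate numbers pair the samples was checked through the deviations from the group means. Their correlation across genes was 0.315, 0.0475 and 0.434 for numbers 1, 2 and 3, and the value for number 2 is near 0. The column headers of the deposited table give the BMP6 and vehicle samples of each number a code in common, whose meaning the labels do not state, while the source names give the samples numbered 3 different mice. The 17 differentiation genes were alike within a number. Their mean deviation from the 6 samples was 0.556, 0.130 and -0.630 in BMP6 replicates 1, 2 and 3. In vehicle it was 0.522, 0.068 and -0.646. In these genes vehicle replicate 3 thus lay with BMP6 replicate 3, and not with vehicle replicate 2, whose mouse number it shares. The labels do not state what a number stands for, so which of the fits with 17 and 29 calls applies was not settled. With the replicate block to account for a possible pairing, 29 of all genes were called and 0 of the 8 members.

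Values near 0 changed sign. With the mouse number in the source name as a block, the log2 fold change was -0.0072 for Lats2, 0.0049 for Tead4, 0.023 for Vgll3 and 0.037 for Stk38l. Without both replicate 3 samples it was 0.10 for Vgll3 and 0.073 for Stk38l. With 1 array left out at a time, it was -0.069 to 0.10 for Lats2, -0.0025 to 0.11 for Yap1, -0.0076 to 0.12 for Tead1, -0.19 to 0.083 for Tead4, -0.21 to 0.053 for Ccn3 and -0.037 to 0.21 for Ccn6. It was -0.025 to 0.024 for Ankrd2, -0.11 to 0.044 for Tead2, -0.21 to 0.041 for Tead3, -0.020 to 0.15 for Vgll1, -0.18 to 0.12 for Vgll3 and -0.22 to 0.026 for Nuak2, and -0.080 to 0.00076 for Igfbp3, -0.025 to 0.16 for Taok2, -0.0034 to 0.083 for Wwc2, -0.21 to 0.025 for Stk38l, -0.23 to 0.059 for Zyx and -0.40 to 0.58 for Myog. The number of arrays limits these values.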
